A study of Mus musculus with 6 samples.

Results

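The interferon regulatory factor (IRF) genes encode a family of transcription factors that share a winged helix-turn-helix DNA-binding domain and control interferon and inflammatory genes. The family was examined in single mouse cells, with Irf5 as the member of largest mean difference between circulating tumor cells (CTCs) and tumor cells. Members were the rows of the deposited expression table whose symbol was Irf1, Irf2, Irf3, Irf4, Irf5, Irf7, Irf8 or Irf9. Of these 8 symbols 7 were read, among 44804 rows kept of 45038, and Irf8 was not analysed here. The family was chosen by the FPKM values of Irf5 in the comparison of CTCs with tumor cells, so the members' values in that comparison are a description and carry no test of their own.

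There were 6 cells, a CTC and a tumor cell for each of 1157, 1168 and PDGF1, so 3 of each kind. These names are the first part of the sample titles and are read here as 3 mice. CTCs are cells shed by a tumor into the blood, and the titles of the tumor cells carry the letters GBM. The strain, the alleles, the age of the mice, any treatment, the way the tumors arose and how the cells were picked and identified are not given in the labels. The RNA of each cell passed through 3 rounds of linear amplification before a stranded library was made, so each cell is 1 library and the 3 mice are the replicates.

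IRF proteins are switched on or induced when a cell senses nucleic acids, microbial products or interferon. IRF3, IRF5 and IRF7 lie downstream of Toll-like receptors and cytosolic sensors and, once phosphorylated, enter the nucleus, IRF3 and IRF7 to switch on type I interferon genes and IRF5 to switch on inflammatory cytokine genes. IRF9 is the DNA-binding part of the complex that carries the type I interferon signal to the interferon-stimulated genes. IRF1 activates and IRF2 mostly represses an overlapping set of promoters, and IRF4 acts in lymphocytes and some myeloid cells together with partner factors such as PU.1 and BATF. In the brain the highest IRF5 and IRF7 levels are generally found in microglia and other myeloid cells.

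Promoter windows of the 7 genes, from 250 bases before to 50 bases after the annotated start, were taken from RefSeq on GRCm38.p6. The 7 symbols matched 9 windows. Each was searched on both strands for the core of the interferon-stimulated response element, GAAANNGAAA, which IRF proteins bind, and for the gamma-activated site, TTCNNNGAA, through which interferon gamma acts. The patterns may overlap in part. The first occurs in 3.44% of 32851 windows and the second in 8.30%. Shown are the windows of Irf5 and Irf7, the genes with the largest differences below, and that of Irf2, which alone among the members holds both patterns. Capitals mark the matches, and all are written 5′ to 3′ on the strand of the gene.
Irf5, chr6:29526375-29526674, plus strand: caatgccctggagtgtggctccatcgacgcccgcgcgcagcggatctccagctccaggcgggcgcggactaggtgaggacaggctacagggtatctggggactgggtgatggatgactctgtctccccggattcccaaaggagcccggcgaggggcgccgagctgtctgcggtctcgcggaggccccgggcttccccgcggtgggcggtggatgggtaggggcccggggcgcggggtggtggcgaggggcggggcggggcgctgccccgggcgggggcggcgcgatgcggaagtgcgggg
Irf7, chr7:141266375-141266674, minus strand: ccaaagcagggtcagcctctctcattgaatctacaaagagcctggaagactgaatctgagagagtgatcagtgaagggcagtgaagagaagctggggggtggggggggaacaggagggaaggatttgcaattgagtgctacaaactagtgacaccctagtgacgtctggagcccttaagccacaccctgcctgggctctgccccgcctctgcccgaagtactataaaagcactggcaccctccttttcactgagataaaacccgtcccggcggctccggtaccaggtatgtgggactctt
Irf2, chr8:46739495-46739794, plus strand: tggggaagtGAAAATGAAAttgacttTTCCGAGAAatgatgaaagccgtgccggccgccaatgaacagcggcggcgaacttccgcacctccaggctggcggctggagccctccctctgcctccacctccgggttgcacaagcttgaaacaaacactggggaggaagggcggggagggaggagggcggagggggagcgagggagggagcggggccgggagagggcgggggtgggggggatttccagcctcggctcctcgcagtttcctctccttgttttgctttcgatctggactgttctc
The Irf2 window has GAAAATGAAA from 241 bases and TTCCGAGAA from 224 bases before the start. A window of Irf1 has TTCCCCGAA from 90 bases before the start. The windows of Irf3, Irf4, Irf5, Irf7 and Irf9 hold neither pattern. The Irf5 window is 74.7% G or C, against 62.7% in that of Irf2 and 55% in that of Irf7.

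The cells differed widely in content. FPKM (fragments per kilobase of transcript, scaled to the mapped fragments of the cell, the authors' unit) reached 1 in 1486 to 9702 genes per CTC and 3025 to 11239 per tumor cell, and both cells of mouse 1168 were the richest of their kind. Markers of glioma and oligodendrocyte progenitors reached 1 FPKM in 8 of 8 genes in both cells of mouse 1168. In mouse 1157, 3 of 8 did so in the CTC and 2 of 8 in the tumor cell. For mouse PDGF1 it was 0 of 8 in either cell, so all 8 reached this level in mouse 1168 only. Lower values were present elsewhere. Of the 8 genes, 0 were listed at 0 in either cell of mouse 1157. For mouse PDGF1, 2 were listed at 0 in the CTC and 1 in its other cell. The summed FPKM of a cell ran from 46973 to 727351, so 1 FPKM is not the same mark in every cell. The tumor cell of mouse 1168 also held 16 of 19 microglia and macrophage markers at 1 FPKM or more, with Lyz2 at 1202 FPKM and Ctss at 672 FPKM, against 174 and 19.4 FPKM in the CTC of that mouse. Depth, estimated from the step between low FPKM values, was about 27500000, 31700000 and 43100000 fragments in the CTCs and 11800000, 55800000 and 41200000 fragments in the tumor cells of mice 1157, 1168 and PDGF1. These fragments were copied many times from 1 cell without molecular identifiers, so they cover counting error only and are not independent molecules.

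Irf5 lay below 1 FPKM in every CTC and above it in every tumor cell. In mouse 1157 it was at 0.127 FPKM in the CTC and 11.7 FPKM in the tumor cell. In mouse 1168 it was at 0.308 FPKM in the CTC and 2.76 FPKM in the tumor cell, and in mouse PDGF1 at 0.0910 FPKM in the CTC and 6.82 FPKM in the tumor cell. The groups did not overlap, as in 54 of the 4165 genes that reached 1 FPKM in 3 or more cells (1.3%). The choice of Irf5 had fixed this placing, and the smallest gap was that of mouse 1168. On the log2(FPKM + 1) scale, on which changes of low genes come out too small, Irf5 averaged 0.23 ± 0.14 in CTCs and 2.85 ± 0.88 in tumor cells (SD, n = 3 each). The CTC minus tumor cell difference was -3.49 for mouse 1157, -1.52 for 1168 and -2.84 for PDGF1, with a mean of -2.62 ± 1.0 (SD, n = 3 mice). Rescaling each cell to the same summed FPKM gave -4.68, and moved the median of all tested genes to -0.79 as against -0.06 before. With quantile normalization Irf5 was lower in the CTC of mouse 1168 by less than 1 on this scale.

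**Figure D1:**
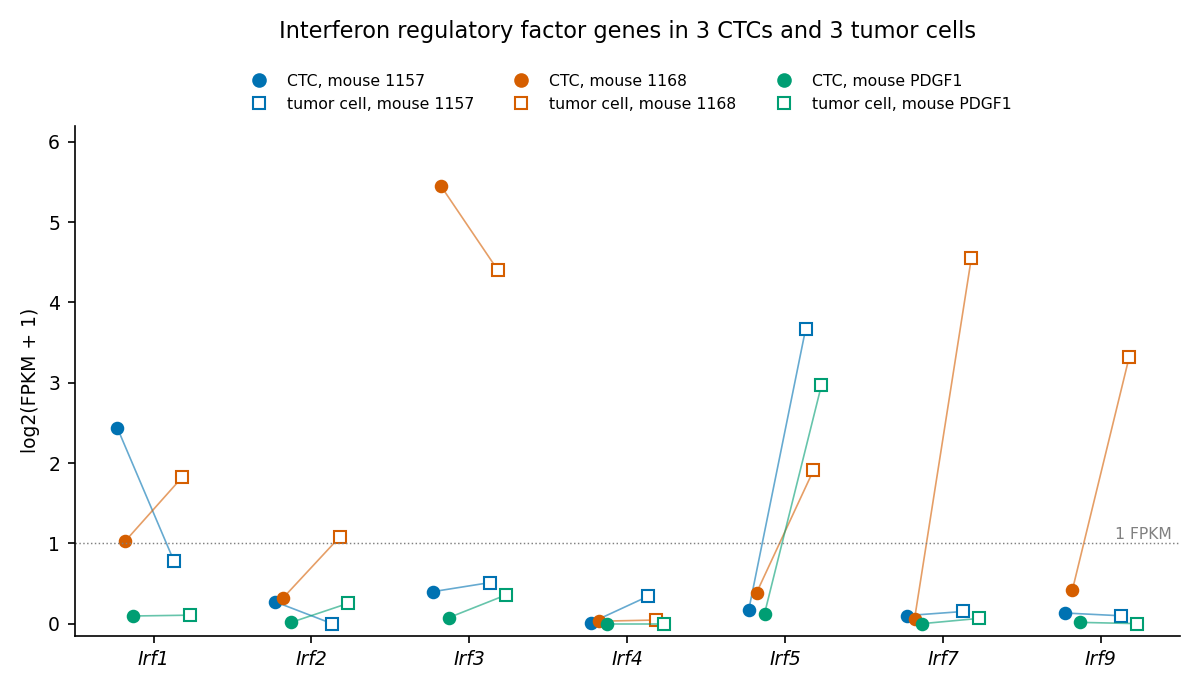
Expression of the 7 IRF genes in the 3 CTCs (filled circles, left of each pair) and the 3 tumor cells (open squares, right), as log2(FPKM + 1), with a line joining the cells of 1 mouse and a dotted line at 1 FPKM. Irf5 is the gene whose 3 CTC values, 0.0910 to 0.308 FPKM, all lie under its 3 tumor cell values, 2.76 to 11.7 FPKM. Its choice had fixed this placing, found in 54 of 4165 genes tested (1.3%). Irf7 and Irf9 part in mouse 1168 only.

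The place of Irf5 within each cell was compared with that of the other genes, which leaves aside the scale of the cell. Among 18772 named protein-coding genes Irf5 stood at percentile 48.4, 50.2 and 78.4 in the CTCs of mice 1157, 1168 and PDGF1. In their tumor cells it stood at percentile 99.4, 63.3 and 98.5. In the tumor cells of mice 1157 and PDGF1, 113 and 284 named genes were at or above Irf5, against 6897 in that of mouse 1168. Irf5 thus ranked high in the tumor cells with few genes detected and near the middle in the richest one.

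Estimated fragments behind these values, taking the longest annotated transcript of 2241 bases, were 7, 20 and 8 in the CTCs and 277, 317 and 576 in the tumor cells of mice 1157, 1168 and PDGF1. No CTC was listed at 0 for Irf5. Background was read from 1412 olfactory and vomeronasal receptor genes, which neurons of the nose use and other cells mostly do not. The share of them at or above Irf5 was 8.43% for the CTC of mouse 1157, 0.567% for that of 1168 and 5.03% for that of PDGF1. The tumor cells gave 0% for mouse 1157, 0.0708% (1 gene) for 1168 and 1.20% (17 genes) for PDGF1. Irf5 was above the 99th percentile of the receptor genes in the CTC of mouse 1168 (0.129 FPKM) and in the tumor cells of mice 1157 (2.03 FPKM) and 1168 (1.23 FPKM). It lay below that percentile in the other CTCs, and in the PDGF1 tumor cell, where the percentile was 7.16 FPKM, so Irf5 was not distinguishable from background there by this measure.

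**Figure D2:**
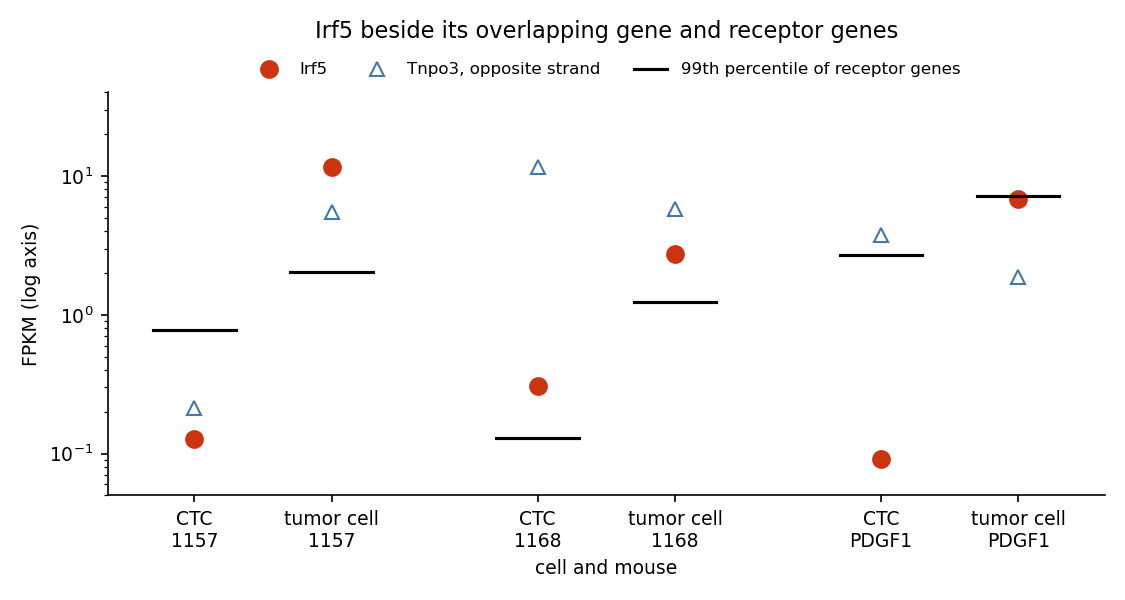
FPKM on a log axis of Irf5 (filled circles), of the overlapping gene Tnpo3 (open triangles) and of the 99th percentile of 1412 receptor genes (bars) in each cell, with the CTC left of the tumor cell of the same mouse. Irf5 stands above the bar in the CTC of mouse 1168 and in the tumor cells of mice 1157 and 1168, and just under it, at 6.82 against 7.16 FPKM, in the PDGF1 tumor cell.

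Irf5 lies on chromosome 6 from 29526625 to 29541871, plus strand (GRCm38, ENSMUSG00000029771.12). Its 3′ end overlaps the 3′ end of Tnpo3, a nuclear import receptor gene on the minus strand, over 1045 bases, of which 411 are exonic in both among 2905 exonic bases of Irf5. The library kit keeps strand, but no source used here says whether the authors' counting used it, so reads of the overlap may be shared. Tnpo3 was at 0.212 FPKM in the CTC and 5.52 FPKM in the tumor cell of mouse 1157. It went the other way in mouse 1168, at 11.7 FPKM in the CTC and 5.76 FPKM in the tumor cell, and in mouse PDGF1, at 3.78 FPKM in the CTC and 1.88 FPKM in the tumor cell. Kcp, the nearest coding gene on the other side and a secreted regulator of BMP signalling, was at 0.724, 0.0190 and 0.125 FPKM in the CTCs and 4.18, 0.804 and 0.00976 FPKM in the tumor cells of mice 1157, 1168 and PDGF1. Neither neighbour had the pattern of Irf5 in all 3 mice.

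The genes whose log2(FPKM + 1) followed Irf5 most closely over the 6 cells were found by Pearson correlation among coding genes that reached 1 FPKM in 3 or more cells, and are named as a description. Atpaf2, an assembly factor of mitochondrial ATP synthase, was closest (r = 0.986), at 0.321, 0.452 and 0.0143 FPKM in the CTCs and 6.22, 2.87 and 5.30 FPKM in the tumor cells of mice 1157, 1168 and PDGF1. Racgap1, a cytokinesis protein (r = 0.945), was at 0.431, 1.47 and 0.0108 FPKM in the CTCs and 14.4, 3.28 and 4.15 FPKM in the tumor cells. Tmem164 (r = 0.940), Arhgef39 (r = 0.939) and Unc13b, which primes vesicles for release (r = 0.931), came next. Like Irf5, all 5 were lower in every CTC than in any tumor cell, and they met the level of 1 FPKM mainly through the tumor cells. That placing, found in 54 of the 4165 genes tested (1.3%), is favoured by choosing genes for their correlation with Irf5. In the PDGF1 tumor cell all 5 lay under the 99th percentile of the receptor genes, 7.16 FPKM. The 6 values behind each r share their libraries and the split into CTCs and tumor cells.

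Irf3 and Irf7, the factors that act directly on the type I interferon genes, reached 1 FPKM in mouse 1168 only, and differed there in opposite directions. Irf3 was at 42.7 FPKM in the CTC and 20.2 FPKM in the tumor cell of that mouse, a log2 difference of 1.05 (under 1 after rescaling). In the other mice it was at 0.318 FPKM in the CTC and 0.425 FPKM in the tumor cell of mouse 1157, and at 0.0530 FPKM in the CTC and 0.279 FPKM in the tumor cell of mouse PDGF1. The 3 CTC values thus lay both above and below those of the tumor cells, and the mean difference was 0.22 ± 0.72 (SD, n = 3 mice), which turned to -0.19 with a pseudocount of 0.1 FPKM and to -0.73 after rescaling.

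Irf7 was at 0.0403 FPKM in the CTC and 22.5 FPKM in the tumor cell of mouse 1168, a log2 difference of -4.50 and the largest of any member in any mouse on this scale. After rescaling, the Irf5 differences of mice 1157 and PDGF1 were larger. Behind the Irf7 values of mouse 1168 were an estimated 4 fragments in the CTC and as many as 3835 in the tumor cell. In mouse 1157 Irf7 was at 0.0716 FPKM in the CTC and 0.111 FPKM in the tumor cell. In mouse PDGF1 it was listed at 0 in the CTC and at 0.0463 FPKM in the tumor cell. The mean difference, -1.54 ± 2.56 (SD, n = 3 mice), therefore rested on mouse 1168. Irf3 lies on chromosome 7 from 44997648 to 45002848, plus strand, and shares 88 exonic bases with Bcl2l12 on the other strand. Irf7 lies on the same chromosome from 141262706 to 141266481, minus strand, and shares 45 with Phrf1 on the other strand. Phrf1 was higher in the CTC of mouse 1168, at 38.5 FPKM against 15.2 FPKM in the tumor cell, the reverse of Irf7.

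Irf9 had the same shape as Irf7. It was at 0.338 FPKM in the CTC and 9.0 FPKM in the tumor cell of mouse 1168, a log2 difference of -2.90. In mouse 1157 it was at 0.0963 FPKM in the CTC and 0.0699 FPKM in the tumor cell, and in mouse PDGF1 at 0.0108 FPKM in the CTC and listed at 0 in the tumor cell. Its mean difference was -0.95 ± 1.69 (SD, n = 3 mice). Irf9 lies on chromosome 14 from 55603571 to 55610030, plus strand, and its first 123 bases overlap the end of Rnf31 on the same strand. Rnf31 was at 4.37 FPKM in the CTC and 1.57 FPKM in the tumor cell of mouse 1168, so it did not share the direction of Irf9.

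Irf1, an activator that interferon gamma induces, was the only member that reached 1 FPKM in more than 1 CTC. It was at 4.42 FPKM in the CTC and 0.711 FPKM in the tumor cell of mouse 1157, a log2 difference of 1.66. In mouse 1168 it was at 1.04 FPKM in the CTC and 2.53 FPKM in the tumor cell, a difference of -0.79, and in mouse PDGF1 at 0.0680 FPKM in the CTC and 0.0757 FPKM in the tumor cell. The groups overlapped, with a mean difference of 0.29 ± 1.26 (SD, n = 3 mice), or -0.03 after rescaling. Within the CTC of mouse 1157 it stood at percentile 96.4 of named genes, against 77.7 in the tumor cell. Irf1 lies on chromosome 11 from 53770014 to 53778374, plus strand.

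Irf2, the repressor of the pair, was at 0.207 FPKM in the CTC and listed at 0 in the tumor cell of mouse 1157. It was at 0.248 FPKM in the CTC and 1.12 FPKM in the tumor cell of mouse 1168, and at 0.0101 FPKM in the CTC and 0.190 FPKM in the tumor cell of mouse PDGF1. The groups overlapped, and the mean difference was -0.24 ± 0.52 (SD, n = 3 mice). Irf2 lies on chromosome 8 from 46739732 to 46847458, plus strand.

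Irf4, the lymphoid member, on chromosome 13 from 30749226 to 30766976, plus strand, was at 0.265 FPKM or less in every cell. It was at 0.00805 FPKM in the CTC and 0.265 FPKM in the tumor cell of mouse 1157 and at 0.0209 FPKM in the CTC and 0.0314 FPKM in the tumor cell of mouse 1168, and was listed at 0 in both cells of mouse PDGF1. The highest of these values stands on an estimated 14 fragments, and a difference was not detectable at this depth.

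**Figure D3:**
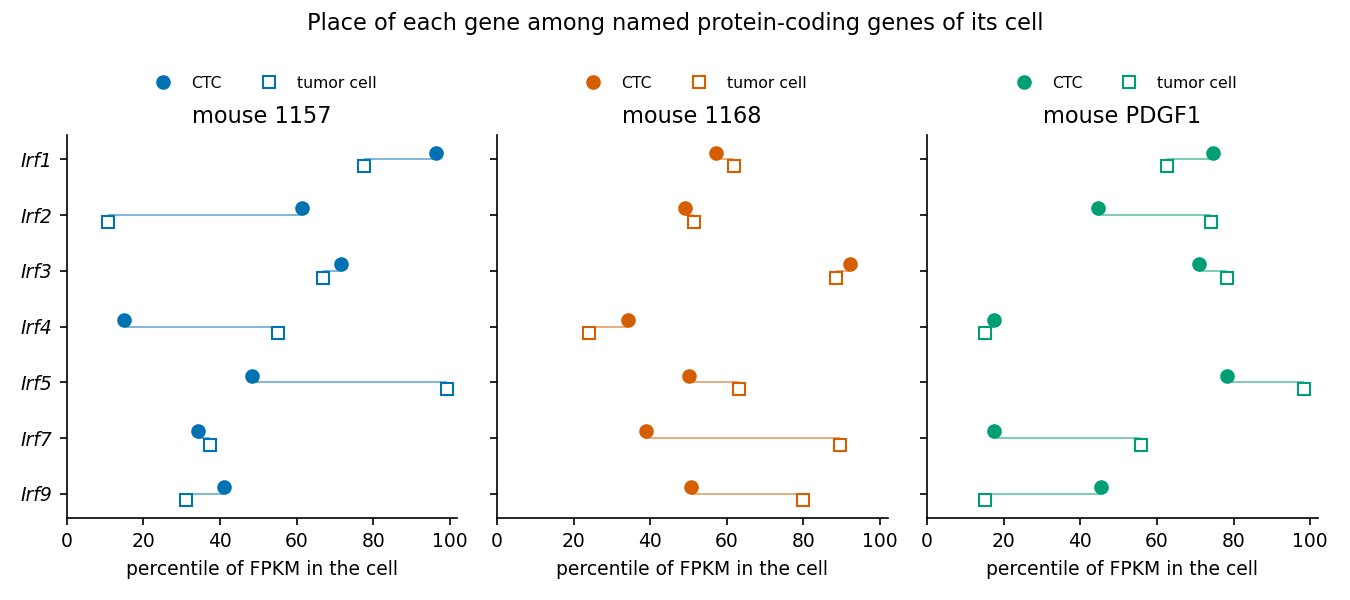
Percentile of each IRF gene among the 18772 named protein-coding genes of the same cell, by mouse, for the CTC (filled circles) and the tumor cell (open squares). Irf5 lies to the right in the tumor cell in all 3 mice, Irf7 by a wide margin in mouse 1168 (38.9 in the CTC, 89.5 in the tumor cell), and Irf1 to the right in the CTC in mice 1157 and PDGF1.

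The members did not move as a block. In mouse 1157 the CTC had 1 member at 1 FPKM or more, Irf1, and the tumor cell had 1, Irf5. In mouse 1168 the CTC had 2, Irf1 and Irf3, and the tumor cell 6, all but Irf4. In mouse PDGF1 the CTC had 0 and the tumor cell 1, Irf5. Irf5 made up 2.42%, 0.689% and 39.1% of the summed FPKM of the 7 genes in the CTCs and 88.1%, 4.75% and 92.0% in the tumor cells of mice 1157, 1168 and PDGF1. The member that led the sum thus changed with the cell: Irf5 in the tumor cell of mouse 1157 and in both cells of mouse PDGF1, Irf7 in the tumor cell of mouse 1168, Irf3 in its CTC and Irf1 in the CTC of mouse 1157.

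Over all genes, limma on log2(FPKM + 1) called 0 of 4165 tested genes at an adjusted p of 0.05 (0%), and 7 had an unadjusted p under 0.05. Irf1 and Irf5 were the members with enough signal to be tested, and neither was called. With a block for the mouse, 1 gene was called by limma (0.024%), and it was no member. In that fit 217 of the 4165 genes had an unadjusted p under 0.05, so the number depended on how the pairing was handled. All 3 CTCs lay below all 3 tumor cells in 54 of the 4165 genes (1.3%), Irf5 among them, a placing that its choice had fixed. The median of the 7 mean differences was -0.24, with 5 of 7 negative, Irf5 among them, a share not counted over all genes. Over the tested genes, which include 2 of the 7, the median was -0.06, and over all 44804 rows it was 0.

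Within a mouse there is 1 cell of each kind and no replicate, so a count was made of genes with a log2 difference of 1 or more, among those that reached 1 FPKM in either cell. In mouse 1157, 1 of 2 members measured, Irf5, was lower in the CTC, where 37.1% of all genes measured were lower, and 1, Irf1, was higher, where 29% were. In mouse 1168, 3 of 6 members were lower, Irf5, Irf7 and Irf9, against 24.9% of all genes, and 1, Irf3, was higher, against 22.7%. In mouse PDGF1 the 1 member measured, Irf5, was lower, against 59.9% of all genes lower and 23.7% higher. With so many genes past this mark in mice 1157 and PDGF1, the counts of members there do not stand apart from the background. In mouse 1168 the 3 lower members passed the filter of 1 FPKM through the tumor cell only. Irf5 was also chosen by its values, so the count of that mouse is a description and no test. The members' median difference in mouse 1168 was -1.16, beside 0.04 over all 12396 genes measured.

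The other genes of the pathway were read from lists chosen with results of these cells known, and most could be measured in mouse 1168 only. Genes such as Zbp1, Ifih1 and Rtp4 passed the filter of 1 FPKM there through the tumor cell only. Such a gene can count as lower in the CTC but not as higher, so the list counts are a description and no test. Of 11 Toll-like receptors and nucleic acid sensors 7 were measured in that mouse, and 5 were lower in the CTC and 0 higher. Over all genes measured in mouse 1168, 24.9% were lower in the CTC and 22.7% higher. Ddx58, which encodes the RNA sensor RIG-I, was at 6.87 FPKM in the CTC and 17.5 FPKM in the tumor cell. Zbp1, a sensor of Z-form nucleic acids, was listed at 0 in the CTC and at 5.92 FPKM in the tumor cell. In mouse PDGF1 it was listed at 0 in the CTC and at 2.53 FPKM in the tumor cell. The latter value lay under the 99th percentile of the receptor genes in that cell, 7.16 FPKM. Ifih1, which encodes the RNA sensor MDA5, was at 0.255 FPKM in the CTC and 7.33 FPKM in the tumor cell of mouse 1168.

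Of 15 adaptors and kinases that switch IRF proteins on 14 were measured in mouse 1168. There 2 were lower and 1 higher in the CTC, against 24.9% and 22.7% of all genes, with a median of -0.43. With a pseudocount of 0.1 FPKM 5 were lower and 3 higher. Slc15a4, an endolysosomal transporter needed for IRF5 activation, was at 13.7 FPKM in the CTC and 13.1 FPKM in the tumor cell of mouse 1168. It was at 2.68 FPKM in the CTC and 3.65 FPKM in the tumor cell of mouse 1157. Ikbkb, which encodes the kinase that phosphorylates IRF5, was at 13.3 FPKM in the CTC and 17.7 FPKM in the tumor cell of mouse 1168. Irak1, a kinase of the Toll-like receptor complex, was at 9.10 FPKM in the CTC and 14.6 FPKM in the tumor cell of mouse 1168, and at 3.21 FPKM in the CTC and 0.0600 FPKM in the tumor cell of mouse PDGF1.

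None of 7 interferon genes reached 1 FPKM in any of the 6 cells, and the highest value was 0.469 FPKM for Ifna2 in the CTC of mouse PDGF1. Of 13 interferon receptor and JAK-STAT genes 11 were measured in mouse 1168, with 3 lower and 2 higher in the CTC. These counts were near the shares of all genes measured there, 24.9% lower and 22.7% higher. Ifnar2, a chain of the type I interferon receptor, was at 70.4 FPKM in the CTC and 17.5 FPKM in the tumor cell. Ifngr2, a chain of the interferon gamma receptor, was at 36.7 FPKM in the CTC and 24.8 FPKM in the tumor cell. Ptpn2, a phosphatase that turns JAK-STAT signalling off, was at 2.97 FPKM in the CTC and 6.27 FPKM in the tumor cell of mouse 1168, and at 0.542 FPKM in the CTC and 46.4 FPKM in the tumor cell of mouse 1157.

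Interferon-stimulated targets were mostly lower in the CTC of mouse 1168. Of 20 listed genes 14 were measured, and 13 were lower and 0 higher in the CTC, against 24.9% and 22.7% of all genes. Targets such as Rtp4 passed the filter of 1 FPKM through the tumor cell only, so this count is no test. Their median was -3.18 beside 0.04 over all genes. Rtp4, a chaperone of receptors, was at 0.0230 FPKM in the CTC and 61.8 FPKM in the tumor cell. Ifitm3, which blocks virus entry, was at 5.90 FPKM in the CTC and 49.2 FPKM in the tumor cell, and Irgm1, a GTPase of cell defence, was at 24.2 FPKM in the CTC and 69.8 FPKM in the tumor cell. In mouse 1157 and in mouse PDGF1 1 target each was measured, so the list could not be read there.

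Of 8 cytokine genes known as IRF5 targets in macrophages 2 were measured in mouse 1168. Both were lower in the CTC, where 24.9% of all genes measured were lower. Ccl5, a chemokine, was at 0.0957 FPKM in the CTC and 199 FPKM in the tumor cell of that mouse, and under 1 FPKM in the other 4 cells. In the tumor cells of mice 1157 and PDGF1, where Irf5 ranked highest, Ccl5 was at 0.390 FPKM and listed at 0. Il6, an inflammatory cytokine, was at 3.74 FPKM in the CTC and 0.0256 FPKM in the tumor cell of mouse PDGF1. Il12b, a subunit of interleukin 12, had a value of 0 in the CTC of that mouse, against 2.06 FPKM in its tumor cell. The tumor cell value of Il12b lay under the 99th percentile of the receptor genes there, 7.16 FPKM.

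Of 9 DNA-binding partners of the IRF4 group 6 were measured in mouse 1168. In the CTC 3 were lower and 1 higher, against 24.9% and 22.7% of all genes measured. The higher one was Spib, an Ets factor, at 1.87 FPKM in the CTC and 0.130 FPKM in the tumor cell, while in mouse 1157 it was at 3.21 FPKM in the CTC and 7.03 FPKM in the tumor cell. Batf3, an AP-1 partner, was at 0.133 FPKM in the CTC and 2.77 FPKM in the tumor cell of mouse 1168 and at 0.132 FPKM in the CTC and 2.24 FPKM in the tumor cell of mouse 1157. Bcl6, a repressor, was at 3.57 FPKM in the CTC and 6.31 FPKM in the tumor cell of mouse 1168. All 7 cofactors and regulators of IRF proteins were measured in that mouse, and 0 passed a difference of 1 (1 was lower with a pseudocount of 0.1 FPKM or after rescaling). Among them Irf2bpl was at 9.94 FPKM in the CTC and 17.3 FPKM in the tumor cell, and the acetyltransferase gene Crebbp was at 5.43 FPKM in the CTC and 4.75 FPKM in the tumor cell. Of each list limma could test 3 genes at most, and 0 of the interferon ligands and of the cytokine genes, and 0 of those tested were called.

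**Figure D4:**
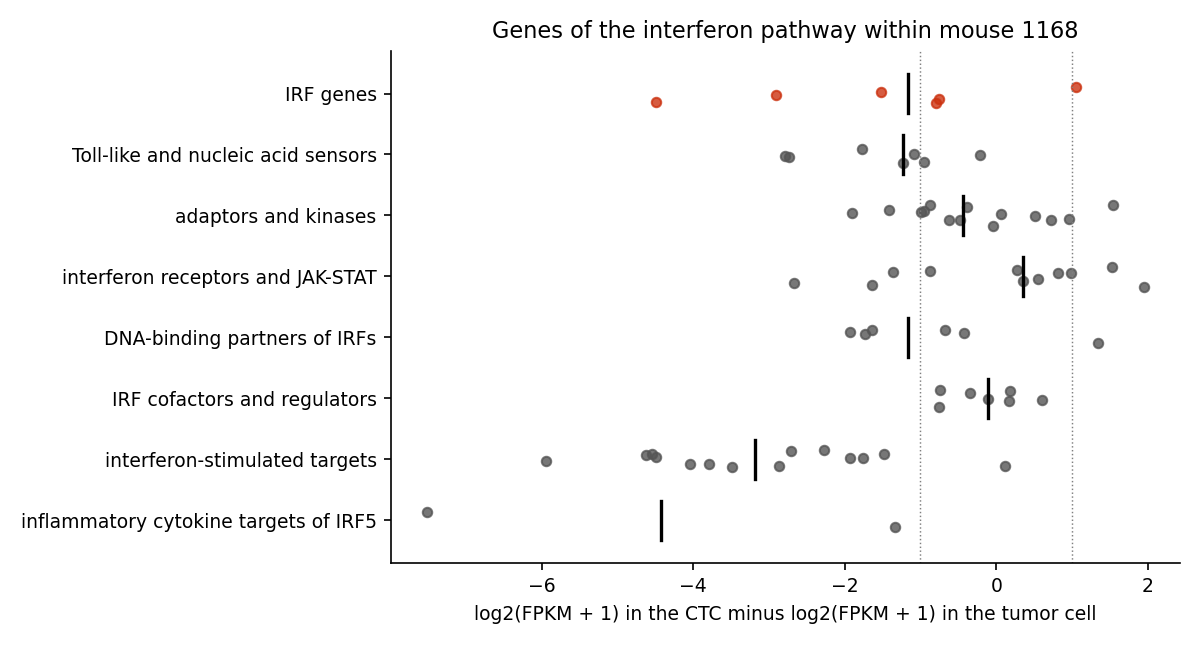
Difference in log2(FPKM + 1), CTC minus tumor cell, within mouse 1168 for the IRF genes and 7 lists of pathway genes, 1 point per gene measured, with the list median as a bar and dotted lines at -1 and 1. Interferon-stimulated targets lie left of -1 in 13 of 14 genes, while the 7 cofactors all lie between the lines.

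Markers of other cell types moved with several of these results. Microglia and macrophage markers, 19 genes, summed to 254 FPKM in the CTC and 2579 FPKM in the tumor cell of mouse 1168. Of 17 measured, 15 were lower in the CTC and 0 higher, against 24.9% and 22.7% of all genes measured. Markers such as Trem2 passed the filter of 1 FPKM there through the tumor cell only, so this count is a description and no test. Pan-leukocyte markers, 10 genes, summed to 7.21 FPKM in the CTC and 327 FPKM in the tumor cell of that mouse. These sums moved the same way as Irf7, Irf9, Irf5, the sensors and the interferon-stimulated targets, and their part in those results was not tested.

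In the mice where Irf5 ranked highest in the tumor cell the same markers summed to less in FPKM. These sums are not rescaled. All rows kept summed to 80273 and 51239 FPKM in the tumor cells of mice 1157 and PDGF1, against 615548 FPKM in that of mouse 1168. The 19 microglia and macrophage markers summed to 5.44 FPKM in the CTC and 14.1 FPKM in the tumor cell of mouse 1157, and to 2.31 FPKM in the CTC and 26.3 FPKM in the tumor cell of mouse PDGF1, most of it Lyz2 at 17.7 FPKM. In mouse 1157, 3 of 5 of them measured were lower in the CTC and 1 higher, against 37.1% and 29% of all genes. Their median there was -1.19 beside -0.62 over all genes measured. The tumor cell of mouse 1157 had Aif1 at 4.82 FPKM and Trem2 at 1.84 FPKM, against 0 and 0.0397 FPKM in the CTC. Cd68, C1qb and P2ry12 were listed at 0 in that tumor cell. Lyz2 was at 2.38 FPKM in that tumor cell, against 1.10 FPKM in the CTC, and Tmem119 at 1.56 FPKM, against 0.125 FPKM. Aif1 and Lyz2 lay above the 99th percentile of the receptor genes in that tumor cell, 2.03 FPKM, and Trem2 and Tmem119 lay under it. In mouse PDGF1, 3 of 3 measured were lower in the CTC, against 59.9% of all genes. Their median there was -2.38 beside -1.18 over all genes measured. The PDGF1 tumor cell had Tyrobp at 4.86 FPKM and Ctss at 2.4 FPKM, against 0.124 and 0.339 FPKM in the CTC. C1qb, C1qc, Aif1, Cx3cr1 and P2ry12 were listed at 0 in that tumor cell. Tyrobp and Ctss lay under the 99th percentile of the receptor genes there, 7.16 FPKM, so they were not distinguishable from background by that measure. Lyz2, at 17.7 FPKM, lay above it. Pan-leukocyte markers summed to 12.9 FPKM in the CTC and 11.3 FPKM in the tumor cell of mouse 1157, and to 4.24 FPKM in the CTC and 0.667 FPKM in the tumor cell of mouse PDGF1. B cell markers, 5 genes, summed to 0.728 FPKM in the CTC and 22.5 FPKM in the tumor cell of mouse 1157, of which Cd79b gave 21.1 FPKM. In mouse PDGF1 they summed to 0.113 FPKM in the CTC and 4.37 FPKM in the tumor cell. Ms4a1 gave 3.39 FPKM of the latter, also under 7.16 FPKM, and Cd79a and Cd79b were at 0. Marker lists of T cells, dendritic cells, neutrophils, and platelets with red cells each summed to 5.46 FPKM or less in every cell. The mean Irf5 difference over mice 1157 and PDGF1 was -3.17 on the log2 scale, and the part of these markers in it was not tested.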

How the data were processed

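Single cells were profiled by RNA-seq after linear amplification, per the labels' protocols. The authors deposited 1 table of FPKM per gene, and STAR 2.4.2a, Cufflinks 2.2.1 and GRCm38 are named in the submitters' processing notes. FPKM divides by length and by mapped fragments, so a cell dominated by a few RNAs gives low values elsewhere. Of 45038 deposited rows, 27 with date names and 207 with repeated names were left out.

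Low FPKM values of 8160 single-transcript genes fell in steps, and 90.3% to 93.5% of values up to 10 steps were within 0.1 of a whole number, which gave the estimated depth. Differences were taken on log2(FPKM + 1). The limma test (limma 3.58.1, R 4.3.3, mean-variance trend, two-sided) used genes that reached 1 FPKM in 3 or more of 6 cells. Benjamini-Hochberg adjustment was over all of them. The code was tried on simulated data with a small spread, the same for every gene, and no effect of the mouse. The real spread was larger, as with Irf5 in tumor cells (SD 0.88), so that trial does not show the power here. The limma test treats the 3 cells of a kind, from 3 mice, as replicates. The first part of the titles, read as the mouse, pairs the cells. The deviations of the cells of a mouse from the group means correlated at 0.178, 0.689 and 0.428 in mice 1157, 1168 and PDGF1. Alternatives were a block for the mouse, another pseudocount, other filters, rescaling each cell to the same summed FPKM, quantile normalization and leaving out cells or mice. Positions are from GENCODE M21.

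The members and gene lists were chosen with earlier results of these data known. Named are all members, the 3 genes of highest mean FPKM in each list, the 5 genes most like Irf5, the genes next to or overlapping a member, and, chosen after their values were seen, single markers. A few genes that the rule names are not given here.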

Additional observations from a re-analysis of the deposited data

How the results depend on the processing

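No member was called in any setting in which it was tested, and 0 members could be tested without the tumor cell of mouse 1168, without mouse 1157 or without mouse 1168. The count of genes called was 0 under each alternative except the mouse as a replicate block, which gave 1. The Irf5 difference was -4.56 with a pseudocount of 0.1 FPKM, -4.68 with each cell rescaled to the same summed FPKM and -3.18 with quantile normalization. It ran from -3.09 to -2.21 when 1 cell was left out. Without mouse 1157, 1168 or PDGF1, chosen after seeing the data, it was -2.18, -3.17 and -2.51. Every CTC lay below every tumor cell, a placing that the choice of Irf5 had fixed. Its direction therefore could not turn with another pseudocount or without a cell or a mouse. Members lower in the CTC of mouse 1168 were 5 with a pseudocount of 0.1 FPKM and 5 rescaled, where Irf1 and Irf2 joined Irf5, Irf7 and Irf9. Before, Irf1 and Irf2 stood at -0.79 and -0.76 there, on a scale on which changes of low genes come out too small. The cause of the members' differences was not tested. Adaptors and kinases lower there were 5 under both settings, against 2 before. The median of the 7 members ran from -1.07 to 0.08 when 1 cell was left out, turning positive without the tumor cell of mouse 1168. Irf3 turned to -0.19 with the smaller pseudocount and -0.73 rescaled, and Irf1 to -0.03 rescaled. Quantile normalization was computed for tested genes only, so it gives no value for the median and none for the members of mouse 1168 other than Irf1 and Irf5; neither passed a difference of 1 there, so that the count was 0 of 2 and Irf5 was no longer counted. With 3 cells a group, 1 per mouse, a member below 1 FPKM often rests on few fragments.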
